A study of Mus musculus with 6 samples.

Results

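Whole-genome bisulfite sequencing gave the methylation of CpGs in LSK cells of mouse bone marrow, the Lin-, Sca-1+, c-Kit+ fraction with the stem cells of the blood and their first descendants. The high-copy windows described here are the 1 kb windows of the autosomes in which CpGs drew far more reads than elsewhere: 3074 of 2335885 windows with a listed CpG, or 0.132%. They were selected on depth alone. Reads at CpGs were summed over all 6 samples, divided by the number of CpGs listed in the window, and had to exceed 3 times the median of all autosomal windows, which was 23.3 reads per CpG. Depth is therefore a description below and is not tested, while methylation level and the spacing of CpGs were not used in the choice. The lowest member lay at 3.00 times the median and the highest window left out at 2.999 times. The member windows held 31846 CpGs, 0.163% of the autosomal CpGs.

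Wild-type LSK cells (WT, 3 samples) were compared with LSK cells lacking Tet2 and Tet3 (DKO, 3 samples), whose products oxidise 5-methylcytosine. Per the labels these are biological replicates, but the labels do not say how many mice each represents, how or in which cells the genes were deleted, or the age of the mice, so p-values measure the spread between these samples. The labels' cell type cannot be checked with these data, which hold DNA only. The DKO label was checked by lost DNA: 4 neighbouring windows on chromosome 3 held 109 to 165 reads in each WT sample and 0 in each DKO sample, and 3 on chromosome 6 held 169 to 231 reads in WT and 0 to 14 in DKO. In the RefSeq gene table Tet2 lies on chromosome 3 and Tet3 on 6, and none of these windows is a high-copy window. Mean depth was 3.46 to 3.56 reads per CpG in WT and 4.09 to 5.46 in DKO. CpGs of mitochondrial DNA, which is held to be largely unmethylated, read as methylated in 1.21 to 1.37% of calls in WT and in 1.53 to 1.86% in DKO, and the groups did not overlap.

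A mouse genome holds many sequences in more copies than its assembly shows. The major satellite around the centromeres is a tandem array of a short unit, the genes for ribosomal RNA lie in tandem arrays of a CpG-rich unit, and LINE-1 elements start with a row of short promoter monomers. Where many copies in the cell are represented by few in the assembly, reads of all of them fall on the same place, so a level there is an average over copies that cannot be told apart. Satellites and transposable elements are textbook sites of dense methylation in somatic cells, while the CpG islands of expressed genes are textbook sites without it.

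The windows are high-copy also where they hold genes, and 4 sequences show what the levels below refer to. Promoters of the RefSeq table (build GRCm38.p6, 250 bases before to 50 after a gene's start) were looked for in the member windows by the distances between their CpGs, which had to be the same for at least 7 CpGs. The letters come from RefSeq and the positions, on build mm9, from this match of CpG distances, since no mm9 sequence was used here. Such a match was found for 11 gene symbols. In each line the capitals mark the CpGs, and the sequence is read 5′ to 3′ on the gene's strand. Hjurp, which encodes the chaperone that loads the centromeric histone CENP-A, was matched at chr1:90174105-90174404 on the minus strand, and its 22 CpGs stood almost unmethylated inside a methylated high-copy locus.
Hjurp: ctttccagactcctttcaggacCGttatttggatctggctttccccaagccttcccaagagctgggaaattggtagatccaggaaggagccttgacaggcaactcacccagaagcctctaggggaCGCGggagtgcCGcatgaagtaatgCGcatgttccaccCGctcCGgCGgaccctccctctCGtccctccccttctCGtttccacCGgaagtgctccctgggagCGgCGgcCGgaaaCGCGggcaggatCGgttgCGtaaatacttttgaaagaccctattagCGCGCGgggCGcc
Sp140, a gene of the SP100 family of nuclear body proteins, was matched at chr1:87497028-87497327 on the plus strand, and A530032D15Rik at chr1:85106379-85106678 on the minus strand. Both are shown because they are near copies of each other in separate high-copy loci: 270 of the 271 bases they share were identical (99.6%).
Sp140: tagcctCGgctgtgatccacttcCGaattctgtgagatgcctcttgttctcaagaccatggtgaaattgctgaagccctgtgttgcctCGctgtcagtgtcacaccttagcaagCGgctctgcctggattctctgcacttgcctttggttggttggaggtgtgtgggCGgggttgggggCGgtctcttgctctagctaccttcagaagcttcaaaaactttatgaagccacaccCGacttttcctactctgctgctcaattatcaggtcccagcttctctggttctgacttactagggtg
A530032D15Rik: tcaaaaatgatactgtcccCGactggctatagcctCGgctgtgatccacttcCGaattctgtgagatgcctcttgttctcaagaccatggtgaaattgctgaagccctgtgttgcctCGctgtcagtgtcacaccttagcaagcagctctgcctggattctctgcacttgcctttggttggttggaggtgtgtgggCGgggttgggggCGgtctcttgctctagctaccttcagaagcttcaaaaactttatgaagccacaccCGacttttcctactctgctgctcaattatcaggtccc
Gm40237, a predicted gene, was matched at chr4:118219761-118220060 on the plus strand. It is shown because the sequence repeats itself: shifted against itself by 88 bases, 97.6% of 212 bases were identical.
Gm40237: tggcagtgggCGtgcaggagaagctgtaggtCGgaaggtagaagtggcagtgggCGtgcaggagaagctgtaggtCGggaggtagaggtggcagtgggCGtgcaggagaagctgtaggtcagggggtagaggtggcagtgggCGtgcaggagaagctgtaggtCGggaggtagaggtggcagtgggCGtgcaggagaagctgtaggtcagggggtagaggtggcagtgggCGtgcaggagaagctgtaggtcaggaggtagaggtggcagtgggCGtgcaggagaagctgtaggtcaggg

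Levels at these 4 sites differed widely. The Hjurp promoter read 0, 0.654 and 0.396% in the WT samples and 0, 0.821 and 1.34% in the DKO samples, from 459 to 853 calls per sample. If calls were independent, the 0 of 566 calls in WT replicate 1 would allow a level of up to 0.530%, and the 0 of 523 in DKO replicate 1 up to 0.574%. A read counts at each CpG it covers, so these limits are too tight. The levels read at the promoter lie below the level of mitochondrial CpGs in the same samples, and the groups overlapped. The high-copy locus around it, chr1:90108001-90207000, was methylated for the most part: it read 72.0, 73.0 and 71.1% in WT and 73.8, 73.7 and 74.9% in DKO. The DKO samples lay above the WT samples there, by 2.10 points between the means. The window that holds the promoter's CpGs, chr1:90174001-90175000, read 16.0% in WT and 12.9% in DKO on average. Every DKO sample lay below every WT sample there, opposite to the locus as a whole, with a difference of the means of -3.13 points. The window before it, chr1:90173001-90174000, read 9.98% in WT and 11.3% in DKO on average, and the groups overlapped. Of the 84 tested windows of the locus, the DKO samples all lay above the WT samples in 10 and below them in 4, and 70 overlapped. Over all tested autosomal windows the shares above and below were 9.05% and 3.75%, so these counts do not set the locus apart. The promoter matched to Sp140 read 66.5% ± 3.01 in WT and 65.8% ± 2.04 in DKO, and that matched to A530032D15Rik read 68.9% ± 3.67 and 70.1% ± 3.78 (SD, n = 3). The samples of the near copies overlapped, and so did the genotypes at each of them. The repeated Gm40237 sequence read 82.0, 83.4 and 85.5% in WT and 84.2, 81.5 and 83.7% in DKO. A promoter on chromosome 6 matched to LOC115490388 (chr6:3132866-3133165, 15 CpGs) was partly methylated, with 36.6, 37.4 and 28.6% in WT and 57.1, 36.1 and 28.6% in DKO, so that DKO replicate 1 alone stood apart.

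Depth among the members was very uneven. The median member lay at 5.32 times the autosomal median. Of the 3074 windows, 1654 exceeded 5 times, 791 exceeded 10 times, 241 exceeded 30 times, 67 exceeded 100 times and 14 exceeded 1000 times the median, with 15154 times as the highest. Member windows at most 10 kb apart were joined into 700 loci, of which 314 were a single window and 39 had at least 10 windows. The 3 loci with the most reads lay in the megabases that the choice of windows names: chr2:98502001-98508000 (6 member windows), chr9:3000001-3039000 (39) and chr9:35112001-35114000 (2). Together they took 72.5% of all reads in members, and the 10 most read loci took 80.1%. Within those megabases the member windows took 99.4%, 99.0% and 86.8% of the reads. A level weighted by reads over all members is therefore set mostly by these 3 loci.

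The members took 7.10, 6.70 and 6.81% of autosomal reads in the WT samples and 6.22, 6.12 and 6.18% in the DKO samples. Every DKO sample was thus below every WT sample, with a difference of the means of -0.698 percentage points. Fewer copies, less recovery in the library and another treatment of reads that fit several places cannot be told apart in these shares, and depth was the measure that chose the windows. Within the members, the 3 most read loci took 73.5, 73.6 and 73.5% of member reads in WT and 72.8, 70.9 and 71.4% in DKO. A CpG-dense locus on chromosome 17 went the other way, with 2.02, 2.04 and 1.96% in WT and 2.57, 3.23 and 2.54% in DKO. These shifts in the mix of reads bear on the read-weighted levels below.

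Most member windows lay elsewhere than the most read loci. Chromosome 10 held 1267 of them (41.2%) in 401 of the 700 loci, or 10.2 members per 1000 windows, while the other autosomes ranged from 0.0874 per 1000 on chromosome 19 to 2.41 on chromosome 8. On chromosome 10 the loci crowded towards its start: 344 of 401 began below 60 Mb. Depth was highest there as well, with a median of 13.8 times in the first 10 Mb, but it did not fall steadily. The median was 4.91 times from 40 to 50 Mb and 6.22 times from 50 to 60 Mb. It was 8.20 times from 110 to 120 Mb (7 windows) and 3.58 times from 120 to 130 Mb (4 windows). Of the chromosome 10 loci, 76 held 6 to 8 member windows, against 15 of 299 loci elsewhere. This is not a length, since member windows up to 10 kb apart were joined and a locus can span more than its members. How the aligner placed reads that fit several copies is not given in the sources used here, and its part in this crowding was not tested. In all autosomes, 1.26% of windows below 4 Mb, where the assembly begins beside the centromere, were members against 0.132% overall. They came from 10 chromosomes, most of them from chromosome 11 (78 windows), chromosome 10 (68) and chromosome 9 (39).

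**Figure D1:**
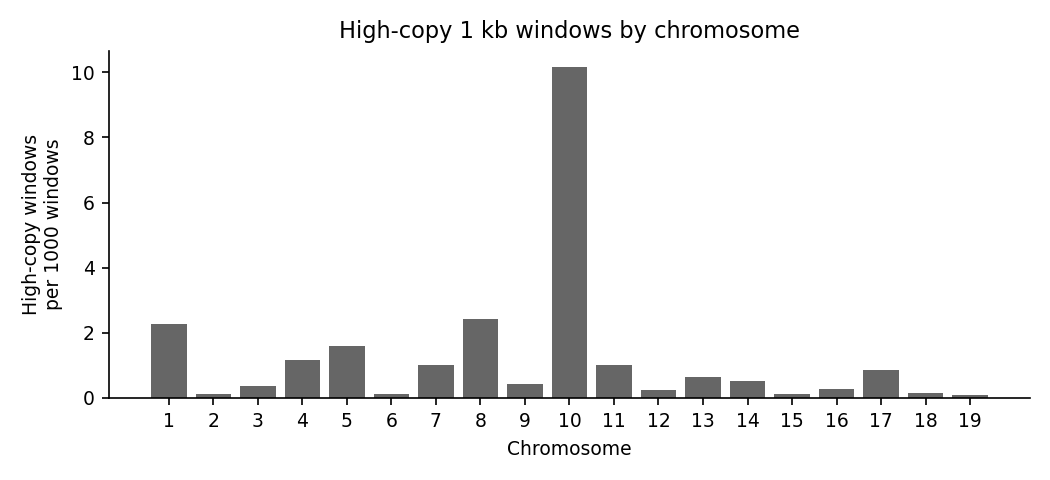
High-copy windows per 1000 autosomal windows with a CpG (vertical axis) for each autosome (horizontal axis). Chromosome 10 stands at 10.2 and the next highest, chromosome 8, at 2.41.

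Spacing of the CpGs, which the choice did not use, was regular in some of the loci and of more than 1 kind. In the chromosome 9 locus at 3.0 Mb, 308 pairs of CpGs were 234 bp apart, against a mean of 8.90 pairs at the distances within 10 bp of that. The unit of the mouse major satellite is known to have this length. The same distance exceeded its neighbours in the other most read loci, on few pairs: 9 pairs against 1.5 in the chromosome 2 locus and 3 pairs against 0.150 in the chromosome 9 locus at 35.1 Mb. In the chromosome 2 locus it was not the commonest distance, since 10 pairs lay 88 bp apart against 0.750 at the distances around that. Spacing was then compared over all loci with at least 30 CpGs whose commonest distance was that of pairs numbering 20% or more of their CpGs. By that limit 234 bp was commonest in 1 locus, while 212 bp was the commonest distance in 14 loci, all on chromosome 10, and 208 bp in 13 loci, of which 12 were on chromosome 10. These are known lengths of the promoter monomers of the T-F and A types of young LINE-1 elements, although no sequence of them was compared here. In all, 41 loci passed that limit, of 280 with enough CpGs to be judged and 700 in total. The name satellite-like is thus backed by spacing in few loci, and the windows are called high-copy windows here.

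**Figure D2:**
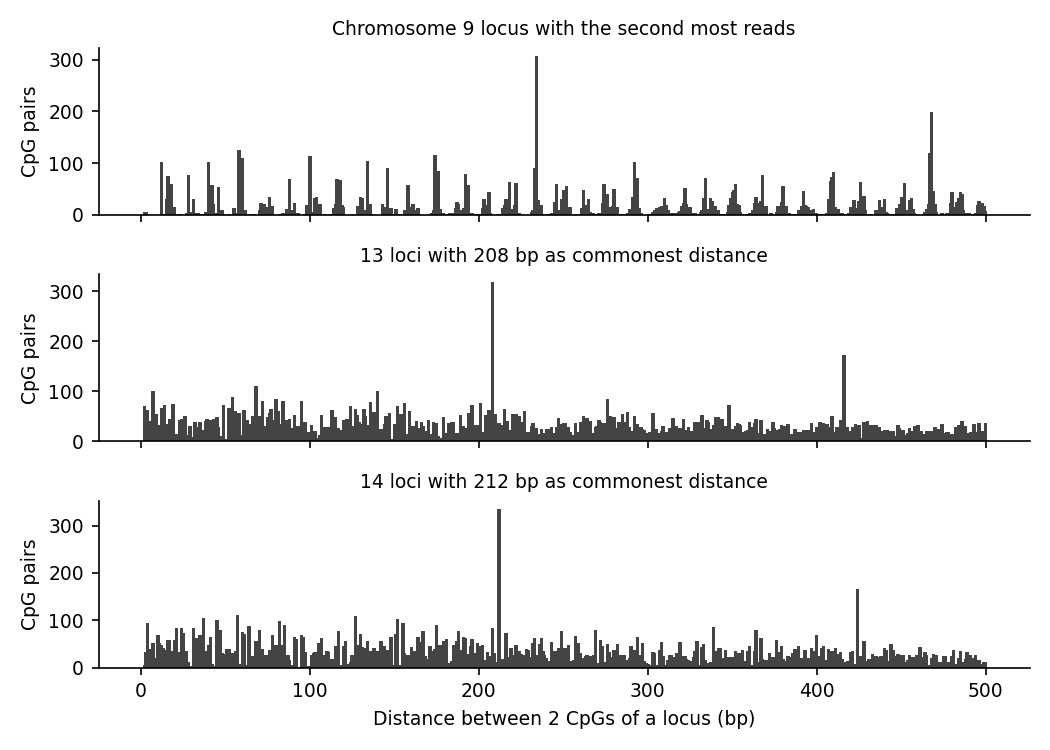
Number of CpG pairs (vertical axis) at each distance in bp up to 500 bp (horizontal axis), in the chromosome 9 locus at 3.0 Mb (top) and in the loci with 208 bp (middle) and 212 bp (bottom) as commonest distance. The highest peaks stand at 234, 208 and 212 bp; in the chromosome 9 locus many lower peaks stand between 0 and 500 bp.

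Runs of CpGs in the members recurred more often than those in other windows. A run was 8 CpGs in a row within a window. It recurred when another run in the autosomes had the same 7 distances, read from either strand. The second run could lie in the same window, so repeats within a window count as well. Of 1557 member windows with a run, 765 (49.1%) held a recurring one, against 48919 of 1004138 other windows (4.87%). The difference was present at each CpG density: 24.2% against 0.765% at 8 to 10 CpGs per kb, 52.5% against 4.24% at 11 to 20, 88.6% against 19.6% at 21 to 40, and 90.2% against 47.4% over 40. Members on chromosome 10 recurred most, in 69.5% of 809 windows, against 27.1% of 748 on the other chromosomes, while the windows of chromosome 10 that are not members recurred in 4.85%. These shares are a description, since neighbouring windows and copies are not independent.

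The members as a whole were methylated at an intermediate to high level. Of the 3074 members, 2789 had enough data for a test, set at 3 CpGs and 20 reads in each of the samples; 267 had fewer CpGs and 18 fewer reads. Of these 2789, 55.3% stood at 80% or more, 41.1% between 50 and 80%, 3.30% between 10 and 50% and 0.251% below 10%. The 771943 other windows that met the same limits stood at 82.5, 10.2, 4.54 and 2.78% in these classes. The median level was 81.5% in members and 91.7% in other windows. Intermediate levels were thus more common among members than elsewhere, and unmethylated windows rarer.

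The 3 most read loci were methylated at about 85% in both genotypes. The chromosome 2 locus read 85.4, 87.0 and 86.0% in WT and 85.1, 85.7 and 85.2% in DKO, from 1726928 to 2173927 calls per sample. The chromosome 9 locus at 3.0 Mb read 84.9, 86.7 and 85.2% in WT and 84.0, 85.1 and 84.1% in DKO. That at 35.1 Mb read 84.4, 87.3 and 85.2% in WT and 83.2, 84.6 and 83.5% in DKO. In each of them WT replicate 2 was the highest sample and DKO replicate 1 the lowest, and the groups overlapped. The differences of the means were -0.82, -1.18 and -1.90 percentage points. Counting error was no limit here: the binomial SE of a sample was at most 0.0266 points in the chromosome 2 locus, where the SD between WT samples was 0.809 points. A locus of 2 windows on chromosome 12, chr12:3109001-3111000, read 88.2, 89.3 and 88.0% in WT and 87.2, 87.9 and 86.9% in DKO, and was the only one of the 10 most read loci where every DKO sample lay below every WT sample (difference -1.15 points, exact permutation p = 0.1, two-sided and the lowest value possible for 3 against 3). That difference turned to 5.97 points, with overlapping groups, when each CpG counted equally.

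**Figure D3:**
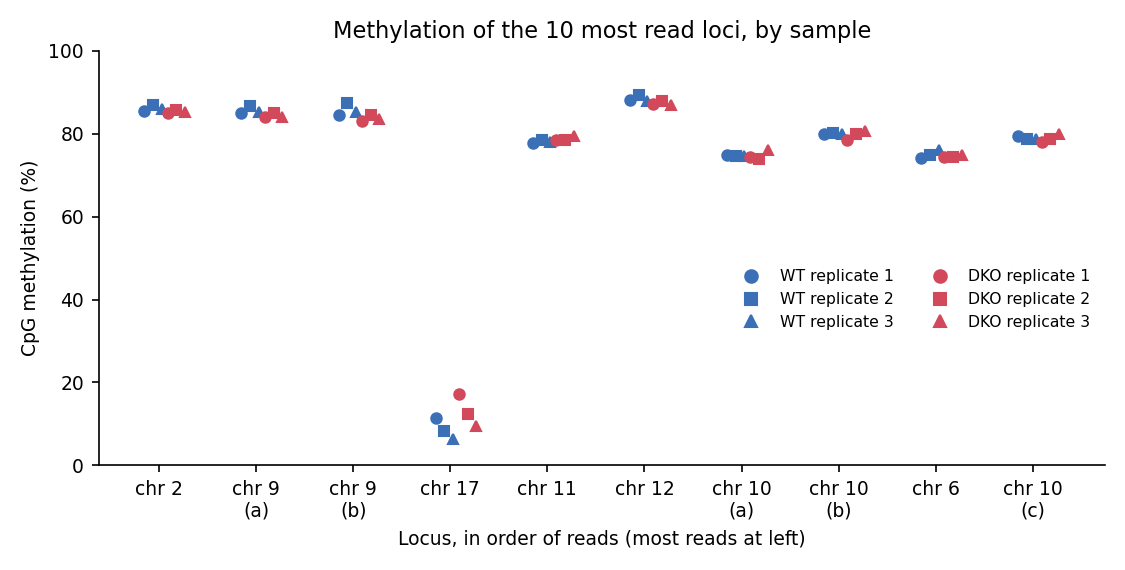
CpG methylation in percent (vertical axis) of each sample in the 10 most read loci, ordered by reads (horizontal axis); blue marks are WT, red marks DKO, and shapes are replicates. All loci lie between about 74 and 89% except the CpG-dense chromosome 17 locus, and the groups overlap in all but the chromosome 12 locus.

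Levels differed between positions counted modulo 234 bp. Counting began at the first CpG of the chromosome 9 locus at 3.0 Mb, and the 18 positions with at least 10 CpGs were compared. Such a position is not a fixed place in the unit. Since CpGs cannot lie 1 bp apart, neighbouring positions such as 74 and 75 come from different copies. The spacing of copies also varied, with 91 pairs at 233 bp and 28 at 235 bp. Most stood between 80 and 91%. Position 155 read 90.9% ± 0.451 in WT and 90.5% ± 0.393 in DKO, and position 36, with few reads, 48.9% ± 0.535 and 48.2% ± 1.93 (SD, n = 3). The position with the largest difference was 74, with 69.9, 77.4 and 72.3% in WT and 67.8, 69.1 and 67.4% in DKO. Every DKO sample was below every WT sample there and at the neighbouring position 75 (81.3% and 79.6% on average), and at none of the other 16; no position had every DKO sample above. Both positions were picked by their values, and WT replicate 2 was again the highest sample.

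Some CpGs of these loci were unmethylated in every sample. At least 1000 calls per sample were available for 58 CpGs of the chromosome 2 locus, with a median level of 88.5%, and for 232 of the chromosome 9 locus at 3.0 Mb, with a median of 88.1%. Below 10% stood 2 of the 58 and 1 of the 232. CpG 2:98503060 read 0.778, 0.971 and 0.804% in WT and 0.796, 0.709 and 0.905% in DKO. CpG 9:3001900 read 1.98, 1.33 and 1.16% in WT and 1.35, 1.66 and 1.55% in DKO. CpG 2:98503060 thus read below the mitochondrial CpGs of the same sample in all 6 samples, and CpG 9:3001900 did so in WT replicate 3 and in the DKO samples. Whether the copies behind these reads hold a CpG at these places was not tested.

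The loci with 208 and 212 bp spacing, nearly all on chromosome 10, were highly methylated and differed by less than 1 point between the genotypes. CpGs with a partner 208 bp away, 477 in 13 loci, read 90.5, 90.4 and 90.2% in WT and 90.3, 90.8 and 90.9% in DKO. The other 523 CpGs of those loci read 79.3% ± 0.0455 and 79.2% ± 0.771 (SD, n = 3). CpGs with a partner 212 bp away, 529 in 14 loci, read 85.7, 85.5 and 86.3% in WT and 87.0, 86.3 and 86.3% in DKO. The means differed by 0.74 points. All DKO samples lay above all WT samples, but only barely, with 86.280% in WT replicate 3 and 86.281% in DKO replicate 2. In a smaller set, 3 loci with 206 bp as commonest distance, the 165 CpGs with a partner at that distance read 90.1% ± 1.21 in WT and 92.0% ± 0.284 in DKO without overlap, and the other 34 read 85.9% ± 1.17 and 80.9% ± 2.58, also without overlap and in the other direction (SD, n = 3). In the 208 and 212 bp families the CpGs with such a partner were methylated more than the rest of the same loci, with WT means of 90.3% and 79.3% at 208 bp and of 85.8% and 82.8% at 212 bp. All member windows of chromosome 10 together read 81.7, 81.9 and 81.9% in WT and 81.4, 82.1 and 82.5% in DKO, and these groups overlapped.

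A CpG-dense locus on chromosome 17 was the one poorly methylated locus among the 10 most read. The locus chr17:39979001-39986000 holds 606 CpGs in 7 windows, at 10.2 to 114.6 times the median depth. The RefSeq table lists Rn18s-rs5, a sequence related to 18S ribosomal RNA, on chromosome 17 of GRCm38.p6; since the builds differ, its overlap with this locus was not determined. The locus read 11.3, 8.16 and 6.46% in WT and 17.1, 12.4 and 9.47% in DKO, from 92423 to 216905 calls per sample. The mean difference was 4.33 points, and the groups overlapped because DKO replicate 3 lay below WT replicate 1. The samples spread far more than counting allows, with SDs of 2.47 and 3.86 points against a binomial SE of at most 0.10 points. The spread was shared by the whole locus: DKO replicate 1 was the highest sample in 7 of 7 windows and WT replicate 3 the lowest in 6 of 7. Mitochondrial CpGs, for comparison, differed between the groups by 0.437 points.

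**Figure D4:**
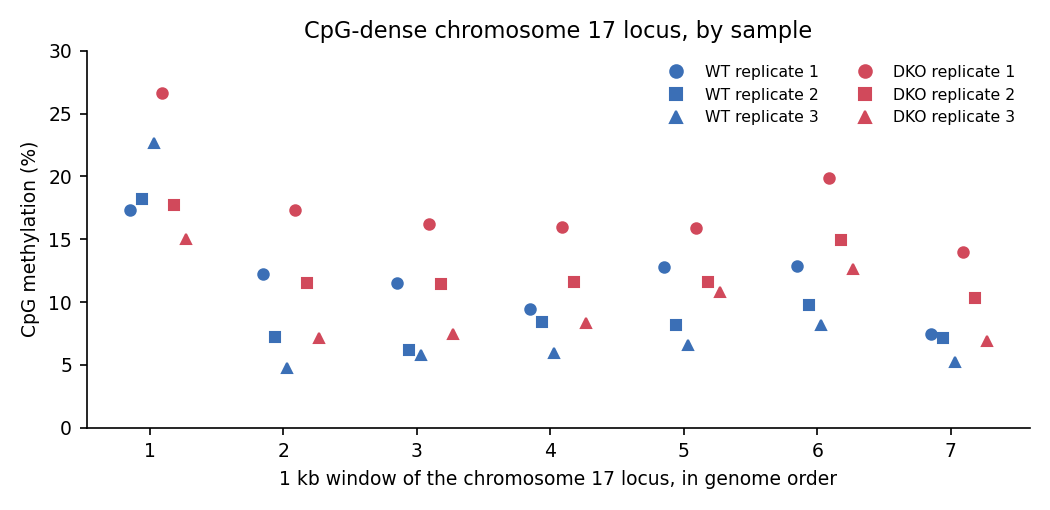
CpG methylation in percent (vertical axis) of each sample in the 7 windows of the chromosome 17 locus in genome order (horizontal axis); blue marks are WT, red marks DKO. DKO replicate 1 is the highest sample in all 7 windows.

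Of the 195 loci with at least 1000 calls in every sample, 1 stood below 10% on average. This locus, chr1:24619001-24623000 with 3 windows at up to 20.9 times the median, read 2.70, 2.50 and 2.19% in WT and 2.03, 2.92 and 4.74% in DKO, and the groups overlapped. Among its 48 CpGs was a run of 27 whose distances are the same as in mitochondrial DNA, the DNA of an organelle kept in many copies per cell. Its level was above that of mitochondrial CpGs in every sample, for example 2.70% against 1.37% in WT replicate 1.

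The larger loci differed in level. Of the 39 loci with at least 10 windows, the DKO samples all lay above the WT samples in 2, below them in 0, and overlapped with them in 37. The lowest of the 39 were chr16:3232001-3247000, chr5:15114001-15222000 and chr8:19681001-19790000, all near 70%. The highest was chr8:74326001-74383000, with 89.7% ± 0.847 in WT and 89.3% ± 0.752 in DKO (SD, n = 3). WT and DKO overlapped in the 3 lowest and the 3 highest of them. Over all 195 loci with enough reads the median difference was 0.0688 points, from -2.82 to 7.22. In 11 of them (5.64%) all DKO samples lay above all WT samples, in 11 all lay below, and in 173 the groups overlapped. Among all tested windows of the genome the corresponding shares were 9.05% and 3.75%, over windows and not loci.

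The largest of these differences was at chr17:3077001-3083000, 5 windows near the start of chromosome 17. The locus read 74.4, 72.3 and 70.6% in WT and 80.1, 79.1 and 79.7% in DKO, with all DKO samples above all WT samples, by 7.22 points between the means. In 4 of its 5 windows the groups were separated in the same direction. It was found among 195 loci by its value.

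The levels were then compared at matched CpG density, the number of CpGs listed in a window. At 6 to 10 CpGs per kb, 1153 members read 78.5% ± 0.0877 in WT and 78.5% ± 0.654 in DKO (SD, n = 3), while the other windows read 88.2% and 89.2%. The gap between members and other windows differed between genotypes by -1.02 points at this density, by -2.83 points at 11 to 20 and by -3.37 points at 21 to 40 (two-sided exact permutation p = 0.1 for each, the smallest possible, with no overlap). At 1 to 2, at 3 to 5 and over 40 CpGs per kb the gap overlapped between groups. Weighted by reads, the members themselves overlapped between WT and DKO in every density class. With each window counted equally the gap differed by -0.92, -1.72 and -1.75 points at the 3 densities, again without overlap, and over 40 CpGs per kb the 51 members then differed by 1.54 points without overlap. Adjusted over the 6 densities by the Benjamini-Hochberg method, no exact permutation p of this size can pass 0.05.

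Windows were also matched by level. Windows were put into classes by their mean level over all 6 samples, each window counting equally. In the class from 50 to 80%, 1147 members read 70.8, 71.5 and 71.3% in WT and 70.5, 70.8 and 71.8% in DKO, a difference of -0.19 points with overlapping groups. The 78508 other windows of that class read 66.1, 66.3 and 66.2% in WT and 72.4, 72.9 and 72.9% in DKO, a difference of 6.55 points without overlap. The gap between the sets thus differed between genotypes by -6.74 points (exact permutation p = 0.1, the smallest possible). In the class from 10 to 50%, the difference was 1.29 points in 92 members and 6.25 points in 35079 other windows, and the gap differed by -4.96 points without overlap. In the class from 80% up, it was -0.07 points in 1543 members and 0.80 in the others. Below 10% stood only 7 members, and the gap there differed by 1.34 points with overlapping groups. Members are read more deeply than other windows, so the classes were also restricted to windows with at least 80 calls in every sample. From 50 to 80% the difference was then 0.20 points in 740 members and 6.90 in 2011 other windows. From 10 to 50% the 67 members left were themselves separated, with 32.0% ± 0.473 in WT and 33.6% ± 0.493 in DKO (SD, n = 3), a difference of 1.61 points. Other windows of that class then differed by 3.79 points, so that the gap differed by -2.18 points in place of -4.96, still without overlap.

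**Figure D5:**
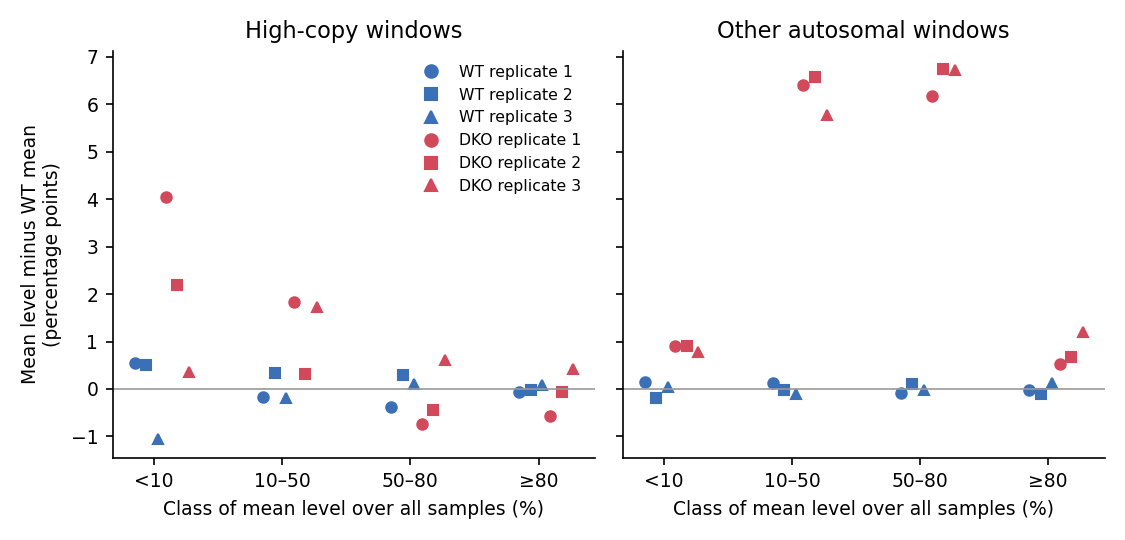
Mean level of each sample minus the WT mean, in percentage points (vertical axis), for windows in 4 classes of level (horizontal axis), in high-copy windows (left) and other autosomal windows (right); blue marks are WT, red marks DKO. Between 10 and 80% all DKO samples stand above all WT samples in other windows, by 6.25 and 6.55 points on average, and the groups overlap in high-copy windows.

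Summed over all reads, the members read 82.3, 83.6 and 82.6% in WT and 81.5, 81.5 and 81.6% in DKO. Every DKO sample lay below every WT sample, by 1.32 points between the means, while the other autosomal windows read 80.7% ± 0.379 in WT and 81.6% ± 0.878 in DKO (SD, n = 3). Members minus other windows came to 1.39, 3.31 and 1.67 points in WT and -0.47, 0.81 and -0.78 points in DKO, a difference of -2.26 points without overlap (exact permutation p = 0.1, the smallest possible). The separation of this gap was lost without the chromosome 17 locus (-1.82 points), without the 10 most read loci (-1.0 points) and in the 3 most read loci alone (-1.99 points). Without WT replicate 2 the 2 differences were -0.95 and -1.67 points. The lower summed level did not stand for the members one by one. Counting each window equally, the members read 78.1% in WT and 77.9% in DKO with overlapping groups, and without the 10 most read loci 79.6% and 79.5%. Without the chromosome 17 locus, whose share of member reads was larger in DKO, the difference was -0.88 points with overlapping groups. The 1752 members outside chromosome 10, that locus and the 3 megabases read 75.8% ± 0.548 and 75.5% ± 0.271 (SD, n = 3).

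By depth, the summed levels differed without overlap only in the deepest classes. From 3 to 5 times the median the members read 77.8% in WT and 77.9% in DKO, from 5 to 10 times 79.6% and 79.7%, and from 10 to 30 times 79.9% and 79.5%. From 30 to 100 times they read 65.6% and 62.9%, and over 100 times 85.1% and 83.9%, with every DKO sample below every WT sample in both. Without the chromosome 17 locus these became 80.2% and 80.3%, and 85.6% and 84.6%, and the groups overlapped in both. Windows from 2 to 3 times the median, just outside the choice, read 80.4% ± 0.163 in WT and 81.0% ± 0.599 in DKO (SD, n = 3).

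Window by window, few members were called. Each of 774732 autosomal windows with enough reads was tested with a quasi-binomial model of methylated and unmethylated calls, and was called at an adjusted p below 0.05 with group means 10 or more points apart. Over all tested windows 0.8% were called higher in DKO and 0.0183% lower. Among the 2789 tested members 2 were called higher (0.0717%) and 1 lower (0.0359%), so the share called lower rests on a single window. The share called higher was below that of the genome, but it depends on the test. The prior for dispersion was fitted in bins of total reads, so the test was not equally strict at all depths, and members are read more deeply. With 1 prior for all windows, 4 of the 2789 members were called higher, against 3798 of all tested windows. All DKO samples lay above all WT samples in 157 members (5.63%), against 9.05% of all tested windows, and below in 166 (5.95%), against 3.75%. The median difference was -0.08 points in members and 0.93 points in other windows, and 48.4% of members and 58.3% of other windows had a higher mean in DKO.

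The 3 called members differed in how well they held. The window chr1:90155001-90156000, at 4.32 times the median and inside the locus that holds Hjurp, read 39.5, 44.5 and 42.1% in WT and 75.6, 69.4 and 70.1% in DKO, from 114 to 221 calls per sample. It rose by 29.6 points (adjusted p = 0.00208), and at 5 of its 10 CpGs the DKO samples all exceeded the WT samples. At CpG 1:90155805 no methylated call was found among 54 in the WT samples, which allows a level of up to 5.56%, and the level was 40.7, 26.7 and 16.0% in DKO, from 15 to 27 calls. The call was kept in 4 of 6 repeats without 1 sample; it was lost without WT replicate 1 (adjusted p = 0.0681) and without DKO replicate 2 (0.0537).

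The window chr17:3079001-3080000 lies in the locus near the start of chromosome 17 described above, at 13.5 times the median. It read 58.7, 56.8 and 54.1% in WT and 75.3, 71.2 and 69.8% in DKO, from 571 to 936 calls per sample, and rose by 15.6 points (adjusted p = 0.00333). All 3 DKO samples lay above all WT samples, but the call was lost in all 6 repeats without 1 sample, with adjusted p from 0.105 to 0.247. The window chr7:46517001-46518000 has 3 CpGs and 26 to 52 calls per sample. It read 76.5, 76.9 and 76.5% in WT and 31.6, 48.0 and 46.2% in DKO, and fell by 34.7 points (adjusted p = 0.0352). At only 1 of its 3 CpGs did all DKO samples lie below all WT samples, by 27.6 points between the means. At CpG 7:46517892 DKO replicate 3 read 87.5%, above every WT sample. CpG 7:46517695 had 0 calls in the sample with the fewest, so the samples did not all rest on the same CpGs. The call of this window was lost with 1 dispersion prior for all windows (adjusted p = 0.0931). It was also lost with at least 10 reads in place of 20 (0.101) and in each repeat without 1 sample.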

How the data were processed

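Levels were computed from counts of methylated reads and of all reads per CpG and sample, which the authors deposited as a single table without normalisation or pooling. The submitters' processing notes name BSMAP 2.74 and mm9; the handling of reads that fit several places, of PCR duplicates and of read ends is not given in the sources used here, and it can set both depth and level in repeated sequence. There were 0 columns of other samples. A level is methylated over all reads, in percent, from reads summed over the CpGs of a window, locus or class; a read counts at each CpG it covers, and intervals cover counting error only. The members and lists were chosen with earlier results of these data known.

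Windows of 3 or more CpGs with 20 or more reads in each sample were tested with a quasi-binomial model whose dispersion was moderated in limma's way, with a prior fitted in bins of total reads (at least 200 windows each) and a floor of 1, followed by an F test and Benjamini-Hochberg adjustment over all windows (Python 3.11.15, numpy 2.4.6, scipy 1.17.1). The test was checked on simulated data. Single values were compared by two-sided exact permutation tests, which cannot go below 0.1. Alternatives were limma 3.58.1 on log2 ratios and Fisher's exact test after pooling reads by group. The rule for named loci was: the 10 with the most reads, the 3 megabases of the choice, up to 5 called members in each direction, and the 3 lowest and 3 highest of the loci with at least 10 windows. Other loci, CpGs and promoters were chosen after their values were seen. The matching by level, the equal weighting of windows at matched density, the recurrence of CpG runs and the comparison without the chromosome 17 locus were added after seeing the data.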

Additional observations from a re-analysis of the deposited data

How the results depend on the processing

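The lower summed level of the members in DKO (-1.32 points, and -2.26 relative to other windows) moved by less than the SD between samples with limits of 2, 5 and 10 times the median, with the read minimum and without the 3 megabases. It moved to -0.13 and -0.83 points with each window equal, to 0.21 and -1.08 with each CpG equal, and to -0.061 and -1.0 without the 10 most read loci. Of the alternatives added after seeing the data, the same CpG weights in all samples gave -0.60 and -1.99. Members on chromosome 10 alone gave 0.15 and -0.79, and those outside chromosome 10, chromosome 17 and the 3 megabases -0.27 and -1.21. With each window equal, each CpG equal or the same CpG weights, the level overlapped between groups and the difference relative to other windows did not. Without 1 sample the values ran from -1.60 to -0.95 and from -2.74 to -1.67. For the 10 loci, 67 of 70 recomputed differences moved by less than the SD; the other 3 were with each CpG equal.

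The 3 called members became 4 with 1 prior, 5 with no minimum difference and 1 above 5 times the median. They became 2 and 3 with minimums of 10 and 40 reads, and 50 by Fisher's exact test on pooled reads. By limma on log2 ratios or with each window's own dispersion they became 0. Without 1 sample they ran from 0 to 2. Among all tested windows, limma and the own dispersion likewise called 0, and Fisher's exact test called 43039 higher and 7035 lower. With 1 prior 3798 were called higher and 56 lower, and with no minimum difference 6208 and 144. Minimums of 10 and 40 reads gave 4610 and 59, and 3112 and 44. Without 1 sample 2956 to 4599 were called higher and 30 to 109 lower. At an unadjusted p under 0.05 the main test had 140 members, limma 9 and the own dispersion 82. Of the 140, 76 were higher in DKO and 64 lower. These were 2.725% and 2.295% of the 2789 tested members, against 7.498% and 2.044% of other windows. The share higher in DKO was thus smaller in members than in other windows. The cause of the changes between these tests and settings was not tested.

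With the replicate number as a block the level differences stayed at -1.32 and -2.26 (exact sign permutation p = 0.25, the smallest for 3 pairs). The blocked test called 0 members, but it also called 0 of all tested windows, so this count does not set the members apart. At an unadjusted p under 0.05 it had 121 of the 2789 tested members, and the share of other windows was not counted. Deviations from the group means of same-numbered samples correlated at 0.00332 to 0.00359 over tested windows, and those of other pairs at -0.00204 to -0.00136. In tested members the same-numbered values ran from -0.0167 to 0.00885. Any pairing by number was thus weak.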

Other observations

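Promoters of 6 other gene symbols matched member windows by their CpG distances, and none of them had every DKO sample on one side of every WT sample. Gm51594 and Gm51597 (297 of 300 bases identical) matched the same 4 places in members on chromosome 8, and Gm32110 and Gm33382 (300 of 300 identical) the same place on chromosome 7, so their reads cannot be told apart. The promoter of Gm33671 (13 CpGs) matched 2 places in 1 locus on chromosome 10 and read 96.2% ± 3.90 in WT and 94.0% ± 4.98 in DKO, and that of Gm30618 (7 CpGs) matched 12 places in members among 24 on that chromosome and read 93.4% ± 0.750 and 91.3% ± 4.04 (SD, n = 3). A second start of Gm40237, 7 CpGs at chr4:118219494-118219793, read 78.8, 81.2 and 80% in WT and 86.9, 83.6 and 93.1% in DKO, from 72 to 134 calls per sample, and there all DKO samples lay above all WT samples.

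Members with a recurring run of CpGs read 82.5% ± 0.175 in WT and 82.4% ± 0.334 in DKO, each window counted equally. Those whose runs did not recur read 77.1% ± 0.0801 and 77.4% ± 0.486 (SD, n = 3). Both kinds overlapped between the genotypes.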
